A study of Homo sapiens with 4 samples.

Results

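A set of 7 neighbouring genes of band 4p16.3, the region of chromosome 4 that is joined to the immunoglobulin heavy chain region in a recurrent myeloma translocation, were examined in H929 cells. In order along the chromosome they are FAM53A, TMEM129, TACC3, FGFR3, LETM1, NSD2 and NELFA. They are 7 of 63677 genes in the count files, and all 7 passed the filter on low counts that left 19142 genes for testing. The 7 were chosen by name and position, but also on results of the same comparison that is described here, since their fold changes were already known. Their values are therefore given as a description, with no p-value.

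H929 is an established human cell line of multiple myeloma, a cancer of plasma cells. The cells had been transduced with a non-silencing short hairpin RNA (shRNA; 2 libraries) or with an shRNA against ILF2 (2 libraries), and no other agent or allele is named for either group. ILF2 encodes a protein that works in complexes on double-stranded RNA. The submitters call the replicates independent but do not say whether the cells were transduced separately for each. The p-values therefore reflect only how far these samples differ, which may be technical. Effects of the hairpin on other genes cannot be told apart from those of ILF2 loss. The same holds for any other difference between the cells of the 2 groups. In bulk RNA, fewer cells of a type and less RNA per cell cannot be told apart.

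In the translocation between chromosomes 4 and 14, written t(4;14), the break falls near the start of NSD2. One derivative chromosome then carries FGFR3 beside immunoglobulin enhancers, and the other carries NSD2 beside them, often as a fusion transcript. H929 is known as a line with this translocation. FGFR3 is a receptor tyrosine kinase that binds fibroblast growth factors (FGFs) and signals through adaptor proteins to the RAS and PI3 kinase pathways. NSD2, also called MMSET or WHSC1, is the histone methyltransferase that places dimethylation on lysine 36 of histone H3.

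The libraries held 63459322 to 72977082 counted fragments, and 27595 to 28122 genes had at least 1 fragment. ILF2, the targeted gene, had 53115 and 52851 fragments with the non-silencing shRNA and 6821 and 7911 with the ILF2 shRNA. Its log2 fold change of -2.71 (SE 0.07) matched the labels. All 8 plasma cell markers were abundant: JCHAIN had at least 414429 fragments and SDC1 at least 56150 in each library. The 8 summed to 12330 and 12640 CPM (counts scaled to library size) with the non-silencing shRNA, against 14580 and 14700 CPM with the ILF2 shRNA. Throughout, values joined by "against" are the non-silencing libraries first and the ILF2 shRNA libraries second, each in replicate order. Most of the gap between these sums was JCHAIN (5594 and 5937 CPM against 7682 and 7594 CPM). CD38, MZB1 and TNFRSF17 were also called higher, SDC1 was called lower, and IRF4, PRDM1 and XBP1 were not called. Of 4 T cell markers, CD2, CD3D and CD3G had 0 to 4 fragments in any library. The T cell sum of 8.27 and 7.52 CPM against 16.1 and 17.1 CPM was thus nearly all CD3E. Sums stayed under 1 CPM in every library for 4 B cell (0.361 to 0.661), 4 myeloid (0.448 to 0.777), 3 erythroid (0.108 to 0.173) and 3 stromal markers (0.0810 to 0.251). CD22 had 0 fragments. The 3 epithelial markers summed to 25.0 and 24.1 CPM against 30.4 and 30.03 CPM, most of it KRT18, and EPCAM was at 0.

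The start regions of FGFR3 and NSD2 are shown because these are the genes that the translocation places beside immunoglobulin enhancers. Of them FGFR3 was higher with ILF2 shRNA and NSD2 was close to level. The windows are RefSeq sequence on GRCh38.p14, from 250 bases before to 50 bases after the start, and 5 of the 7 genes had one. LETM1 and TMEM129 had none in the table used. Capitals mark matches, on either strand, to GGGCGG (the GC box), to CCAAT (the CCAAT box), to TATAAA (the TATA box) or to TTTCCCGC (an E2F-type motif), and overlapping matches are counted separately. The FGFR3 window is chr4:1793043-1793342 on the plus strand. The NSD2 window is chr4:1871143-1871442, also on the plus strand.
FGFR3: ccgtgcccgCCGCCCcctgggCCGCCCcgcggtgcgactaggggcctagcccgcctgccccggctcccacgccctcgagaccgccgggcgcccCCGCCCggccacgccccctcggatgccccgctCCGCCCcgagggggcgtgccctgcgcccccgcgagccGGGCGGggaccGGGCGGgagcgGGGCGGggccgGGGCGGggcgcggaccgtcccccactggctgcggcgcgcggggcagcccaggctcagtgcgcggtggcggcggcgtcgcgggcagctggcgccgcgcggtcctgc
NSD2: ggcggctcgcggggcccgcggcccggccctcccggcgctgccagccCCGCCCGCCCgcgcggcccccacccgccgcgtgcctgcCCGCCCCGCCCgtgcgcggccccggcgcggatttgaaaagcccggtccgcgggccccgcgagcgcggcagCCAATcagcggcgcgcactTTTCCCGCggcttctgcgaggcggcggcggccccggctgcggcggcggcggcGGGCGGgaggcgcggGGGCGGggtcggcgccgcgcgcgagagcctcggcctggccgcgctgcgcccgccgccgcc
Both windows were rich in G and C, at 86.3% for FGFR3 and 86.7% for NSD2, where the median over 35116 windows in the table was 58.7%. They held 51 and 63 CpG dinucleotides, against a median of 14. The FGFR3 window held 8 GC boxes and none of the other 3 motifs. The NSD2 window held 6 GC boxes, 1 CCAAT box and 1 E2F-type match that began 77 bases before the start. Over all windows of this length, 45% held a GC box, 34.6% a CCAAT match, 11.5% a TATAAA match and 1.63% the E2F-type motif. TACC3 (72% G and C, 30 CpG) and NELFA (70.7%, 40 CpG) had none of the 4 motifs in their windows. FAM53A had 3 windows with 49 to 54 CpG, each with GC boxes. A match is a description of letters and not of a bound factor. Where transcripts of a translocated NSD2 copy begin cannot be read from these counts.

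FGFR3 was the gene of the 7 with by far the greatest difference. FGFR3 (ENSG00000068078; GRCh37 chromosome 4, 1795034 to 1810599, plus strand) had 11744 and 10327 fragments with the non-silencing shRNA, and 21450 and 23953 where ILF2 was targeted. Scaled to library size, this was 158.5 and 143.3 CPM against 336.6 and 346.0 CPM. Both ILF2 shRNA libraries stood far above both non-silencing libraries, and the gap between the groups was many times the gap within either. The means were 151 ± 10.8 and 341 ± 6.7 CPM (SD, n = 2), a ratio of 2.26. The log2 fold change was 1.18 (SE 0.07, 95% interval 1.04 to 1.31, both derived from the edgeR test statistic). By log2 fold change it ranked at position 180 from the top of all 19142 tested genes. Nearly all genes above it had lower levels. Of 2094 tested genes with at least 100 CPM in the non-silencing libraries, a bound chosen after the values were seen, 3 reached at least the FGFR3 value, counting FGFR3 itself. The other 2 were the mitochondrial ribosomal RNA genes MT-RNR1 (1.399; edgeR adjusted p = 0.185) and MT-RNR2 (1.26; adjusted p = 0.0511). These ranks use the fold change that was known when FGFR3 was listed, so they are a description only. The mitochondrial share of fragments was 0.351% and 0.307% with the non-silencing shRNA, against 0.516% and 0.463% with the ILF2 shRNA. This share, the plasma cell sum (mainly JCHAIN) and CD3E were thus higher in the libraries where FGFR3 was higher, and their part in the result was not tested.

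NSD2, on the other side of the break, was close to level. NSD2 (ENSG00000109685; chromosome 4, 1873151 to 1983934, plus strand) had 82416 and 80102 fragments against 67269 and 74086. This was 1112.5 and 1111.5 CPM against 1055.5 and 1070.3 CPM. The ILF2 shRNA libraries were slightly lower and the groups did not overlap, but the gap was small against the level. The log2 fold change was -0.07 (SE 0.06, interval -0.20 to 0.06). The counts sum all annotated exons of the gene, so transcripts of the translocated and the other chromosome are not separated.

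**Figure D1:**
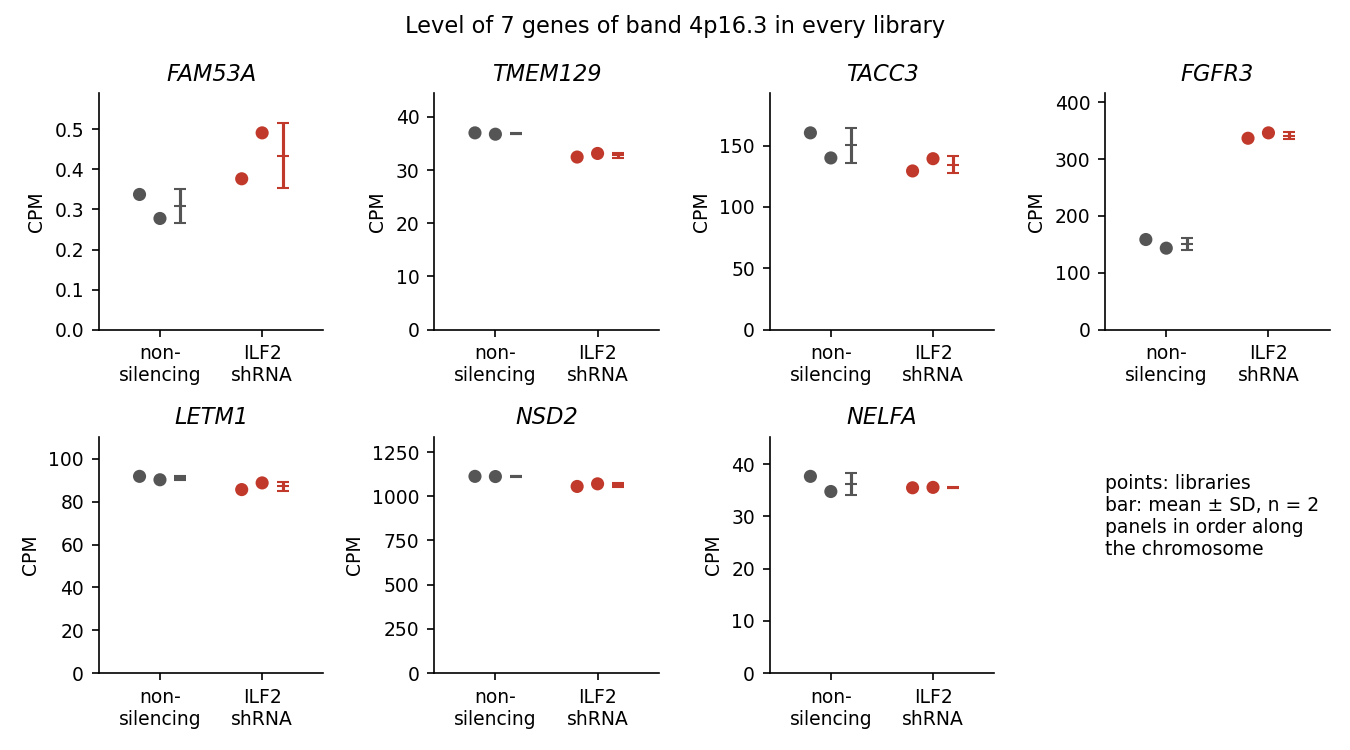
CPM of the 7 genes in each library, with 1 point per library and a bar for the mean ± SD (n = 2), each panel on its own axis from 0. FGFR3 rises from about 151 to 341 CPM, while NSD2 stays between 1055.5 and 1112.5 CPM.

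The relation between the 2 translocation genes can be given within each library, where scaling to library size plays no part. Per exon length, the FGFR3 level was 0.583 and 0.527 of the NSD2 level in the non-silencing libraries. It was 1.30 and 1.32 of it in the ILF2 shRNA libraries. FGFR3 thus went from below NSD2 to above it on this scale. The exon length of NSD2 used for counting, 19776 bases, joins the exons of all its annotated transcripts, whereas that of FGFR3 is 4834 bases. The ratio itself depends on those lengths, but its change between groups does not.

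LETM1 and NELFA, the direct neighbours of NSD2, also differed little. LETM1 (ENSG00000168924; 1813206 to 1857974, minus strand) encodes a protein of the inner mitochondrial membrane that acts in cation and proton exchange. It lies between FGFR3 and NSD2. Its level was 91.8 and 90.2 CPM in the non-silencing and 85.7 and 88.8 CPM in the ILF2 shRNA libraries, so both ILF2 shRNA libraries were slightly lower. The log2 fold change was -0.06 (SE 0.07, interval -0.20 to 0.08). NELFA (ENSG00000185049; 1984441 to 2043630, minus strand), also called WHSC2, encodes a subunit of the negative elongation factor NELF, which holds RNA polymerase II near the promoter. Its level was 37.6 and 34.7 CPM against 35.5 and 35.5 CPM. Here the ILF2 shRNA values lay between the non-silencing ones, and the log2 fold change was -0.03 (SE 0.08, interval -0.18 to 0.13).

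TACC3 and TMEM129, which lie on the far side of FGFR3 from NSD2, had slightly lower values with ILF2 shRNA. TACC3 (ENSG00000013810; 1723227 to 1746898, plus strand) encodes a spindle protein that works with clathrin and the microtubule polymerase CKAP5. Its level was 160.3 and 139.9 CPM against 129.3 and 139.3 CPM. The second library of each group had nearly the same value, so the groups were barely separate. The log2 fold change was -0.16 (SE 0.07, interval -0.30 to -0.02), and 1 library set much of it: leaving out non-silencing replicate 1 gave -0.06, and leaving out the other non-silencing library gave -0.255. An unnamed gene, ENSG00000218422, shares 939 exon bases with TACC3 on the same strand. Fragments there that fit both are taken to be left out, and the unnamed gene itself had 190 to 268 fragments. TMEM129 (ENSG00000168936; 1717679 to 1723085, minus strand) encodes an E3 ubiquitin ligase of the endoplasmic reticulum (ER). It had 37.01 and 36.8 CPM against 32.5 and 33.1 CPM, with little spread inside either group. The log2 fold change was -0.17 (SE 0.08, interval -0.32 to -0.02). Neither TACC3 nor TMEM129 was among the called genes in the main fit, though each was called in at least 1 of the 14 alternatives.

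FAM53A was barely present. FAM53A (ENSG00000174137; 1619642 to 1686029, minus strand) had 25 and 20 fragments with the non-silencing shRNA, against 24 and 34 with the ILF2 shRNA. This was 0.337 and 0.278 CPM against 0.377 and 0.491 CPM, where 3 fragments correspond to 0.0405 to 0.0471 CPM. The log2 fold change of 0.50 had an SE of 0.35 and an interval of -0.20 to 1.19, so its size and direction are poorly known at this depth.

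At the call rule used for all genes (edgeR adjusted p under 0.05), 1 of the 7, FGFR3, fell among the called genes. Over all tested genes 20.3% were called, 10.2% higher and 10.1% lower. The groups did not overlap in 6 of the 7, and they did not overlap in 56.5% of all tested genes. The median log2 fold change of the 7 was -0.06, and that of all tested genes was 0.00. Nothing is read from these counts, since the same contrast was known when the genes were listed.

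Levels can be set against each other only per exon length, as FPKM (the CPM value divided by the kilobases of exon). In the non-silencing libraries NSD2 was highest at 56.2 FPKM, above 95.6% of tested genes. TACC3 (32.1 ± 3.08) and FGFR3 (31.2 ± 2.23 FPKM; SD, n = 2) followed and did not differ beyond their spread. LETM1 (11.1 ± 0.137) and TMEM129 (10.7 ± 0.0519) lay close together, NELFA had 6.10 ± 0.345 FPKM, and FAM53A had 0.0725 FPKM. In the ILF2 shRNA libraries FGFR3 came first at 70.6 ± 1.39 FPKM. NSD2 was second at 53.7 ± 0.529, and TACC3 next at 28.7 ± 1.51 FPKM. The other 4 kept their order, with LETM1 at 10.7, TMEM129 at 9.53, NELFA at 5.98 and FAM53A at 0.102 FPKM. On these lengths the change of order was that of FGFR3 alone. The place of NSD2 rests on its joined exon length of 19776 bases, and a shorter length could put it first in both groups.

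The rest of the band was examined for differences around FGFR3. The band was taken as all genes that start at or below base 4500000 of chromosome 4, and it held 145 other genes, of which 68 were tested. Of these 5 were higher and 4 lower (13.2%), with a median of -0.04 on the log2 scale. The 5 higher became 3 when non-silencing replicate 1 was left out, and 2 when replicate 2 of either group was. The 4 lower became 2 when replicate 2 of either group was left out. Within 500000 bases of the NSD2 start, 13 other genes were tested, and 1 was higher and 1 lower. Chromosome 4 as a whole had 92 higher and 62 lower of 737 tested genes (20.9%), with a median of 0.01.

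The gene lower near NSD2 was SCARNA22, a small Cajal body RNA that lies within the NSD2 span on the same strand and shares 0 exon bases with it. It had 65.7 and 64.5 CPM against 48.5 and 52.6 CPM, or -0.37 (SE 0.07) on the log2 scale (edgeR adjusted p = 9.04e-05). Its host NSD2 was at -0.07, as given above. The gene higher near NSD2 was MXD4, whose product is a MAX partner that represses transcription, 376008 bases from the NSD2 start. It had 43.8 and 39.2 CPM against 59.1 and 61.4 CPM, or 0.54 (SE 0.07) on the log2 scale (edgeR adjusted p = 7.53e-08). The other genes of this range did not pass, among them SLBP, the histone mRNA binding protein gene beside TMEM129 (-0.15; adjusted p = 0.104), and HAUS3, a spindle gene (-0.21; adjusted p = 0.0631). Farther out, SPON2, for a secreted matrix protein, differed by 0.72 on the log2 scale (edgeR adjusted p = 6.18e-07). The adaptor gene SH3BP2 was at -0.41 (adjusted p = 1.77e-05). The calls of SCARNA22, MXD4, SPON2 and SH3BP2 held in all 14 alternative settings. Those of the lysosomal channel gene TMEM175 (0.23), the GPI anchor gene PIGG (0.23) and the zinc finger gene ZNF718 (-0.27) were lost in several. FGFRL1, a receptor of the FGF family without a kinase domain, lies in the same band and was at -0.09 (adjusted p = 0.527).

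**Figure D2:**
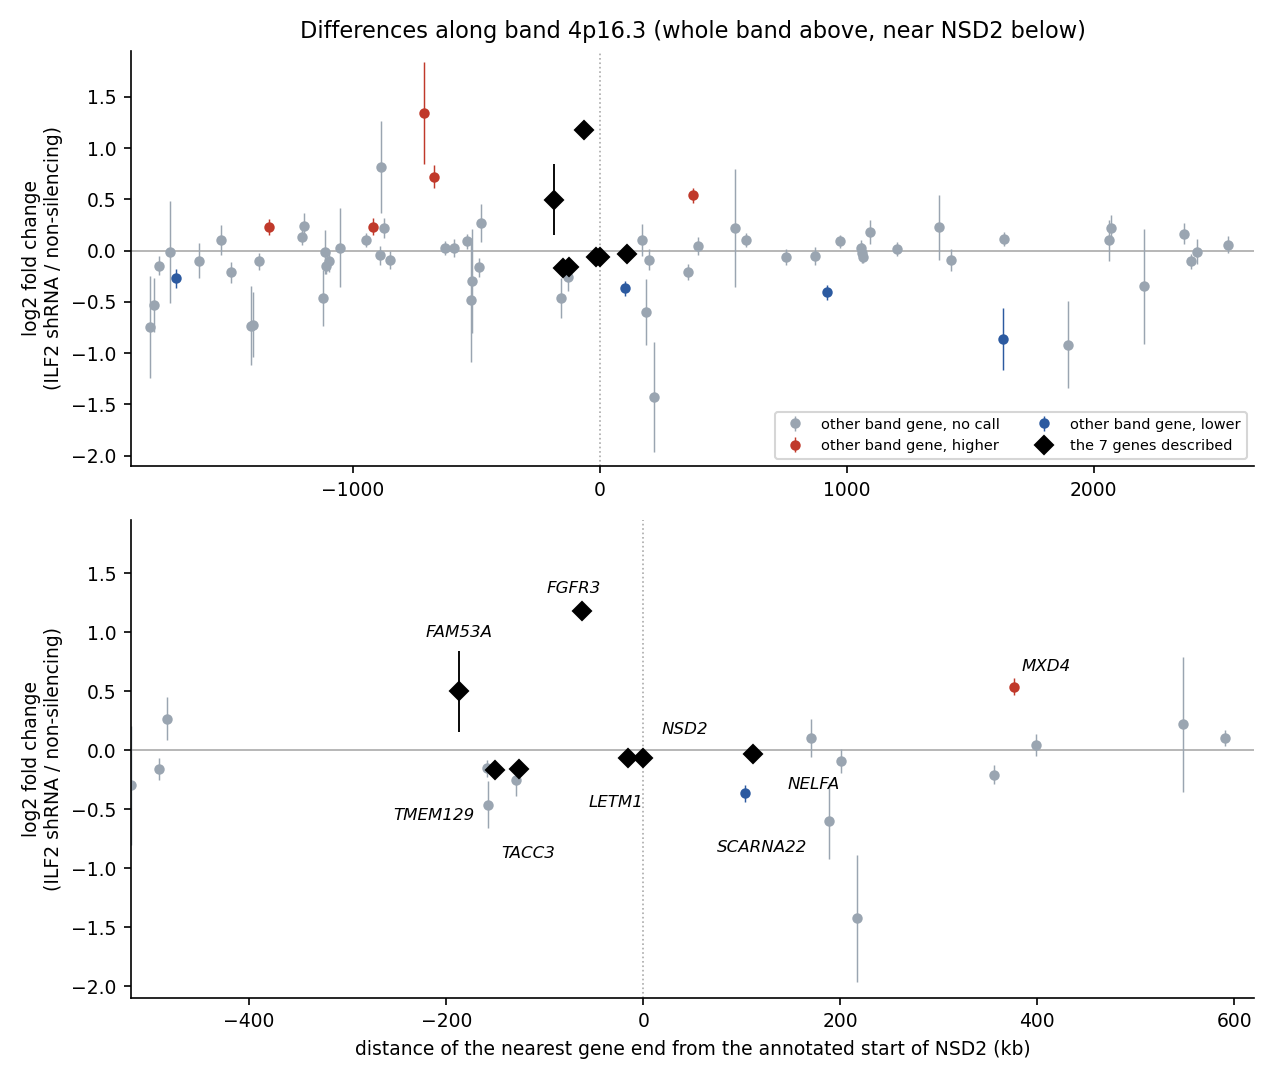
log2 fold change (ILF2 shRNA over non-silencing, bars ± SE) of every tested gene of the band against distance from the NSD2 start in kilobases, for the whole band above and the surroundings of NSD2 below. FGFR3 stands at 1.18, and its nearest neighbours TACC3 and LETM1 lie at -0.16 and -0.06.

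The families and partners of the 7 genes were then counted, with the 7 left out. Across 9 lists, 19 of 163 tested genes were higher and 20 lower (23.9%), with a median of -0.02 on the log2 scale. The counts were 10 and 10 when non-silencing replicate 1 was left out, and 9 and 6 when the other non-silencing library was. Genes of chromosome 5 are marked below, because 267 of 900 tested genes there were higher and 30 lower, with a median of 0.15. These shares are 29.7% and 3.33%, where all tested genes had 10.2% and 10.1%. The cause was not tested. A difference between the cells of the 2 groups cannot be told apart here from an effect of ILF2 loss.

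Among FGF receptors, FGFR3 was the only one abundant in these cells. In the non-silencing libraries FGFR4 had 0.822 FPKM, FGFR1 0.580, FGFR2 0.261 and FGFRL1 4.36, against 31.2 FPKM for FGFR3. FGFR4, on chromosome 5, was at 0.29 on the log2 scale (edgeR adjusted p = 0.0863) and FGFR1 at -0.18 (adjusted p = 0.269), and neither passed. Of 30 other receptor, ligand and coreceptor genes 11 were tested, and 2 were higher and 1 lower. With any 1 library left out, 1 was higher. The 19 that were not tested had at most 12 fragments in any library, among them FGF4 and FGF19 with 0. The heparan sulfate proteoglycan genes GPC1 and SDC1 encode coreceptors. GPC1 had a log2 fold change of 0.45 (adjusted p = 1.76e-04). SDC1, also the plasma cell marker CD138, had 1125 and 1040 CPM against 881 and 954 CPM, which is -0.24 on the log2 scale (adjusted p = 0.00616). The SDC1 call was lost when either non-silencing library was left out (adjusted p = 0.057 to 0.326) and with the replicate block (adjusted p = 0.0552). FGF13, which acts inside the cell, was at 0.53 (adjusted p = 0.0418). That call was lost in 9 of the 14 alternatives, among them DESeq2 (adjusted p = 0.211) and every fit with 1 library left out (adjusted p = 0.0504 to 0.243).

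Of 30 signalling adaptors and kinases below the receptor, all tested, 5 were higher and 4 lower, with a median of -0.01. Leaving out 1 library moved these counts to as few as 2 higher (either non-silencing library left out) and 1 lower (non-silencing replicate 2 left out). The sharpest difference was in IL17RD, also called SEF, whose product is a membrane inhibitor of FGF signalling. It had 3.21 and 2.82 CPM against 1.51 and 1.53 CPM, which is -0.99 on the log2 scale (edgeR adjusted p = 2.0e-06). Both ILF2 shRNA libraries were near the same low value. The docking protein gene GAB1 was higher, at 56.7 and 57.6 CPM against 78.8 and 70.5 CPM (0.39; adjusted p = 3.9e-05). PIK3R1, a regulatory subunit gene of PI3 kinase on chromosome 5, was also at 0.39 (adjusted p = 2.89e-04), and the catalytic subunit gene PIK3CA was at -0.30 (adjusted p = 0.00456). The PIK3CA call was lost when replicate 2 of the non-silencing group (adjusted p = 0.188) or of the ILF2 shRNA group (adjusted p = 0.0788) was left out. The docking protein gene closest to the receptor, FRS2, was at -0.26 (adjusted p = 0.0481), with 12.8 and 13.4 CPM against 12.2 and 9.71 CPM. The FRS2 call was lost without non-silencing replicate 2. GRB2, the adaptor that links FRS2 to RAS, was at 0.08 (adjusted p = 0.49).

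Of 26 other genes that write, erase or read lysine 36 methylation of histone H3, 1 was higher and 5 lower (23.1%), with a median of -0.06. The 5 lower became 2 when non-silencing replicate 1 was left out, 1 when its partner replicate 2 was, and 3 for ILF2 shRNA replicate 2. NSD2 was the most abundant of its family per length: NSD1 had 13.3 and NSD3 7.90 FPKM in the non-silencing libraries. NSD1, on chromosome 5, was at 0.07 and did not pass (edgeR adjusted p = 0.556). NSD3 was at -0.23 (adjusted p = 0.0111), a call that ended with the replicate block (adjusted p = 0.107) and without any of 3 libraries (adjusted p = 0.0966 to 0.226). DNMT3B, a DNA methyltransferase that binds methylated lysine 36, had the greatest difference of the list. It had 26.7 and 25.5 CPM against 14.07 and 13.96 CPM, which is -0.90 on the log2 scale (adjusted p = 1.27e-12), and all 14 alternatives called it. PHF19, a Polycomb reader of the same mark, was at -0.27 (adjusted p = 0.0024, or 0.113 and 0.0511 with either non-silencing library left out). The mismatch repair gene MSH6 was at -0.24 (adjusted p = 0.007, but 0.0853 with the replicate block and 0.0529 and 0.301 with either non-silencing library left out).

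**Figure D3:**
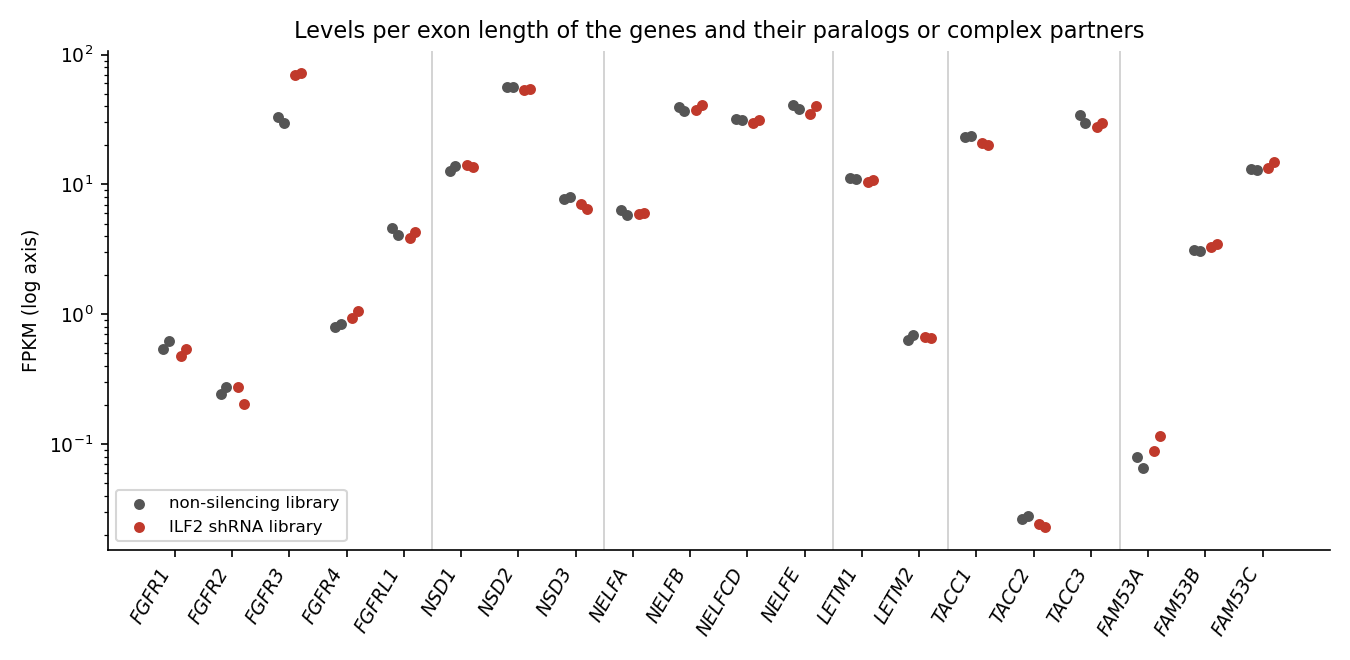
FPKM in each library, on a log axis, of the 7 genes beside paralogs or complex partners. FGFR3 at 29.6 to 71.6 FPKM is the only FGF receptor above 5 FPKM, and NSD2 at 53.4 to 56.3 FPKM is above NSD1 and NSD3.

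NELFA had the lowest level of its complex per length, with 6.10 FPKM against 38.2 for NELFB, 31.6 for NELFCD and 39.5 for NELFE in the non-silencing libraries. The 3 partners had log2 fold changes of 0.03, -0.05 and -0.07, and none of the 3 passed the test. Of 28 tested genes of promoter-proximal pausing and its release, 3 were higher and 0 lower (10.7%), with a median of 0.02. ELL2, an elongation factor known for its part in immunoglobulin secretion by plasma cells, lies on chromosome 5. It had 206 and 211 CPM against 333 and 315 CPM, which is 0.64 on the log2 scale (edgeR adjusted p = 3.51e-11). EAF2, whose product binds ELL proteins, was at 0.49 (adjusted p = 8.01e-07). CDK9, the kinase that releases paused polymerase, was at 0.22 (adjusted p = 0.0254), a call lost with the replicate block (adjusted p = 0.163) and without 3 of the 4 libraries (adjusted p = 0.112 to 0.345).

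Of 20 genes of the LETM1 family and of mitochondrial cation transport, 0 were higher and 2 lower, with a median of -0.04. With unadjusted p under 0.05 the counts were 2 and 3, and over the 14 alternatives 0 to 2 were higher. SLC25A24, an ATP and phosphate carrier gated by calcium, was at -0.47 (edgeR adjusted p = 9.14e-06). MCUB, the inhibitory subunit of the calcium uniporter, was at -0.46 (adjusted p = 3.96e-04). The paralog LETM2 was at 0.00 and did not pass.

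Several genes listed with TACC3 for the mitotic spindle, not all of them its direct partners, were lower. Of 16 genes of the TACC family and of spindle partners, 1 was higher and 8 lower (56.2%), with a median of -0.21 on the log2 scale. TACC3 at -0.16 lay near that median. The 8 lower became 4 when non-silencing replicate 1 was left out, and 2 when non-silencing replicate 2 was. GTSE1, a microtubule-end protein gene, had 54.8 and 51.5 CPM against 39.8 and 40.8 CPM, which is -0.40 on the log2 scale (edgeR adjusted p = 3.12e-05). The kinetochore gene NDC80 was at -0.35 (adjusted p = 2.79e-04), and the microtubule depolymerase gene KIF2C at -0.32 (adjusted p = 2.88e-04). TPX2, the activator of the spindle kinase AURKA, was at -0.26 (adjusted p = 0.00219). The NDC80 call was lost without non-silencing replicate 2 (adjusted p = 0.0814), and that of TPX2 when either non-silencing library was left out (adjusted p = 0.0578 to 0.13). Of the direct partners, CKAP5 was at -0.22 (adjusted p = 0.0115), and CLTC, the clathrin heavy chain gene, was at -0.14 and did not pass (adjusted p = 0.142). The clathrin light chain gene CLTA was at 0.03 (adjusted p = 0.802). AURKA was called lower (-0.22; adjusted p = 0.0148), and PIK3C2A was the 1 gene called higher (0.25; adjusted p = 0.00571). TACC1 was at -0.21 (adjusted p = 0.017) and, like TACC3, was abundant, whereas TACC2 had 0.0273 FPKM in the non-silencing libraries. The calls of CKAP5 and TACC1 were also lost without non-silencing replicate 2.

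Some of the genes listed with TMEM129 for the removal of proteins from the ER were higher. The list was not limited to genes known to act with TMEM129. Of 22 other genes that move misfolded proteins out of the ER, 5 were higher and 0 lower (22.7%), with a median of 0.07, while TMEM129 itself was at -0.17. The 5 became 3 when either non-silencing library was left out. With unadjusted p under 0.05 the counts were also 5 and 0, and DESeq2 called 5 and 0. DERL3, a channel component of secretory cells, had 169 and 155 CPM against 222 and 243 CPM, which is 0.52 on the log2 scale (edgeR adjusted p = 2.45e-08). HERPUD1 was at 0.32 (adjusted p = 1.52e-04), and MARCHF6, a membrane ubiquitin ligase gene on chromosome 5, at 0.30 (adjusted p = 7.57e-04). SEL1L, the partner of the ligase SYVN1, was at 0.25 (adjusted p = 0.00355), a call lost when either non-silencing library was left out (adjusted p = 0.0658 to 0.245). DERL1, with which TMEM129 is known to act, was at 0.00.

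The FAM53 paralogs FAM53B (0.15; edgeR adjusted p = 0.223) and FAM53C (0.12; adjusted p = 0.224; chromosome 5) did not pass, and both were far more abundant than FAM53A. FAM53B had 3.08 FPKM and FAM53C 13.0 FPKM in the non-silencing libraries.

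Other genes that myeloma translocations bring under immunoglobulin enhancers give a further comparison. Of 8 such genes, 2 were higher and 0 lower, with a median of 0.12. MYC had 247 and 226 CPM against 278 and 311 CPM, which is 0.32 on the log2 scale (edgeR adjusted p = 3.5e-04). MAF was at 0.28 (adjusted p = 0.00243). Both calls were lost without non-silencing replicate 2 (adjusted p = 0.115 for MYC and 0.301 for MAF). With unadjusted p under 0.05 the counts were again 2 and 0, as they were in DESeq2. The cyclin gene CCND2 had 691 and 713 CPM against 746 and 747 CPM (0.09; adjusted p = 0.382). None of the 8 had a log2 fold change as high as that of FGFR3. The FGFR3 value was known when the genes were listed, so nothing is read from this.

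**Figure D4:**
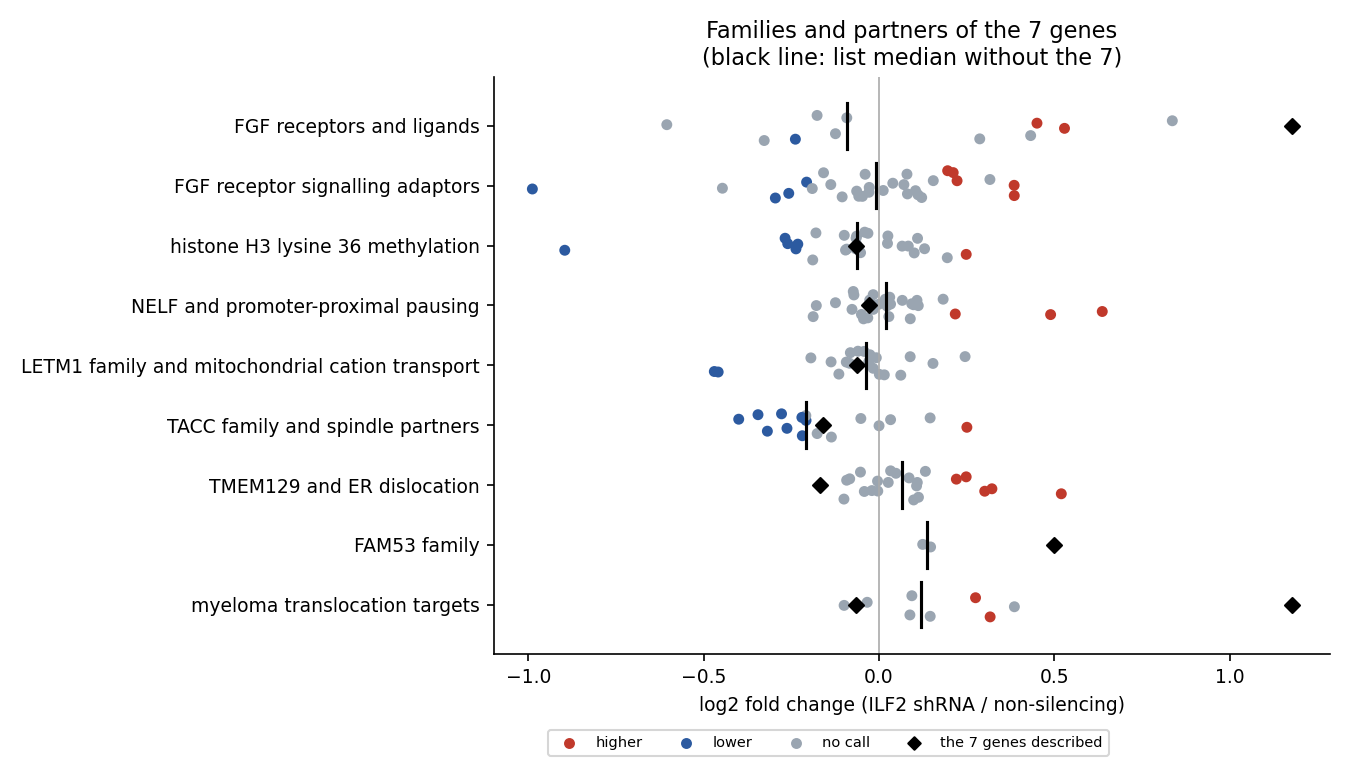
log2 fold change of the tested genes of 9 lists of families and partners, with 1 point per gene, a black line at the list median and diamonds for the 7 genes. FGFR3 at 1.18 lies to the right of every other point, TACC3 lies near its list's median of -0.21, and TMEM129 lies to the left of its list. The 7 genes were chosen with their values known.

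The genes most like FGFR3 in their course over the 4 libraries were found by the root mean square difference of log2 CPM after each gene was centred, among 9093 genes with at least 10 CPM. They were CD3E (0.0554), the sorting receptor gene SORT1 (0.0601) and the calcium sensor gene NCALD (0.0891), on chromosomes 11, 1 and 8. CD3E had 8.22 and 7.49 CPM against 16.1 and 17.03 CPM. SORT1 had 9.39 and 9.16 CPM against 19.5 and 20.01 CPM. The genes most like NSD2 were TENT5C (0.0036), COG1 (0.0047) and NIF3L1 (0.0052), on chromosomes 1, 17 and 2. TENT5C, a poly(A) polymerase gene often mutated in myeloma, had 431 and 433 CPM against 409 and 415 CPM. With 4 libraries in 2 groups, such likeness rests mostly on a like fold change.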

How the data were processed

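Total RNA depleted of ribosomal RNA was read in pairs from 4 stranded libraries, 2 per group, and groups were taken from the sample titles. The deposited values are fragment counts for each gene. The authors made them with featureCounts of Subread 1.4.6-p2 on the exons of Ensembl release 75 (GRCh37) with strand setting 2, per the file headers. Fragments that fit several genes are assumed to have been dropped, as no option to keep them is recorded. STAR 2.3.0 and SAMtools 0.1.19 stand in the submitters' processing notes, while the design text names Tophat2. Gene IDs were matched to GENCODE symbols for 55665 of 63677 genes, and the other 8012 kept their Ensembl ID as a name.

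The comparison used edgeR 4.0.16 under R 4.3.3, with TMM factors, filterByExpr at a minimum count of 10, group as sole covariate and the robust two-sided quasi-likelihood test. Benjamini-Hochberg adjustment ran over 19142 genes, and a call needs an adjusted p under 0.05. CPM used TMM-adjusted library sizes, and FPKM divided CPM by the counted exon length. Residual degrees of freedom numbered 2, and the biological coefficient of variation was 5.38%. Alternatives were DESeq2 1.42.0, limma-voom (limma 3.58.1), other scalings and filters, a GC and length correction (mgcv 1.9.3), the replicate number as a block, and each library left out.

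The 7 genes and the lists were chosen with earlier results of these data known. Named besides the 7 and ILF2 were called band genes within 500000 bases of NSD2 and the 3 largest rises and falls elsewhere in the band above 1 log2 CPM, up to 4 called genes per list by adjusted p (or the 2 most abundant where none passed), and the 3 genes most like FGFR3 and NSD2. Paralogs and direct partners were also named after their values were seen. Motifs were searched in RefSeq start windows on both strands.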

Additional observations from a re-analysis of the deposited data

How the results depend on the processing

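Each result was recomputed under 14 alternatives. FGFR3 kept a log2 fold change of 1.11 to 1.25 in all 14, and NSD2 one of -0.08 to -0.05. LETM1 ran from -0.09 to -0.03, TMEM129 from -0.18 to -0.12, TACC3 from -0.255 to -0.06, and FAM53A from 0.29 to 0.67 in the 13 that tested it. NELFA changed sign, from -0.09 to 0.03. The counts of called genes moved more. Over all genes (1960 higher, 1925 lower) the GC and length correction gave 3030 higher, and leaving out 1 library gave 1029 to 1899 higher and 1070 to 1822 lower. In the band (5 higher, 4 lower) DESeq2 gave 3 higher and 2 lower, upper-quartile factors and no filter each 3 higher, the GC and length correction 11 and 9, and leaving out 1 library 2 to 4 higher and 2 to 5 lower. In the family and partner lists together (19 higher, 20 lower) the GC and length correction gave 37 and 32, and leaving out 1 library 9 to 18 higher and 6 to 22 lower. The replicate numbers in the titles are not said to pair libraries. Deviations of same-numbered libraries from their group means correlated at r = -0.434 over 9094 genes, so the block fit is an alternative only. With the replicate block 1291 of all genes were higher, the band had 2 higher and 2 lower, and the lists had 11 higher and 10 lower. With the block and the GC and length correction together the band had 10 and 8, and the lists had 32 higher. A crossed pairing, added after seeing the data, gave 8 higher and 7 lower in the band and 31 higher in the lists. Over the alternatives the higher and lower counts per list ran from 1 to 3 and 0 to 2 (FGF receptors and ligands), 2 to 11 and 1 to 6 (adaptors), 0 to 3 and 1 to 7 (lysine 36 methylation), 2 to 5 and 0 to 2 (pausing), 0 to 2 and 2 to 4 (mitochondrial transport), 0 to 2 and 2 to 10 (TACC and spindle), 3 to 7 and 0 to 1 (ER), 0 to 2 and 0 (FAM53), and 0 to 2 and 0 to 1 (translocation targets). The causes of these shifts were not tested. Depth limits FAM53A above all, with at most 34 fragments in a library.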

Other observations

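Genes whose transcripts commonly rise when receptor tyrosine kinases signal were looked up in a list of 15, chosen after the data were seen and therefore given as values with no test. All 15 were in the fit. In 11 the ILF2 shRNA libraries were both below the non-silencing libraries, in 2 both were above, and in 2 the groups overlapped. Groups did not overlap, in either direction, in 56.5% of all tested genes. The share for lower values alone was not counted over all genes, so nothing is read from the 11. The median log2 fold change was -0.17. DUSP4, which encodes a phosphatase of the MAP kinases, had 111 and 110 CPM against 66.2 and 66.8 CPM. PHLDA1 had 50.8 and 48.3 CPM against 33.8 and 30.3 CPM, and SPRED2, an inhibitor of RAS signalling, had 10.4 and 9.95 CPM against 7.77 and 7.83 CPM. SPRY2 was scarce, at 0.783 and 0.541 CPM against 0.220 and 0.231 CPM. DUSP6, the phosphatase gene most often read as a gauge of ERK activity, was close to level at 232 and 231 CPM against 225 and 217 CPM. DUSP5 went the other way, from 808 and 823 CPM to 1099 and 1190 CPM, and EGR1, on chromosome 5, overlapped at 4.91 and 3.98 CPM against 4.85 and 5.14 CPM. FOSL1 was also higher, at 4.21 and 3.52 CPM against 4.36 and 4.26 CPM. Several of the falls were small against their SE. The log2 fold changes were -0.12 (SE 0.07) for ETV5, -0.22 (SE 0.21) for ETV1 and -0.17 (SE 0.16) for SPRY1. They were -0.18 (SE 0.09) for SPRY4, on chromosome 5, -0.08 (SE 0.12) for IER3 and -0.07 (SE 0.07) for DUSP6. The FGFR3 transcript was 2.26 times as high in the same libraries, and no relation between it and this list was tested.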
